A study of Mus musculus with 3 samples.

Results

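The 618 transcripts described here are unannotated, unspliced RNAs that lie inside the introns of annotated genes, nearly all of them protein-coding, and run on the same strand as those genes. Total RNA of wild-type C57BL/6J mouse testes was read by CAGE, which marks capped 5′ ends, and by PAS-Seq, which marks polyadenylated 3′ ends. CAGE was run once on adult testes and once at 10.5 days post partum, and PAS-Seq once on adult testes. The whole series has 1 table of 50081 assembled transcript models, with no value per library, so depth is unknown and ages could not be compared. The sources used here do not say which reads built the models. Whether a cap or poly(A) read lies at the ends of a given model was not examined.

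A model was taken when it had a single exon and a code beginning with XX_C, read from model names as assembled without a gene symbol. It had to lie within the span of a same-strand RefSeq-derived model coded NM_R, here called its host. It could share no base with any same-strand RefSeq-derived exon, and its start could not lie within 500 bp of an opposite-strand NM_R start in a head-to-head arrangement. Of 12086 XX_C models, 8645 had 1 exon, 629 of these lay inside a host span, 8 shared an exon base and 3 were head to head. The remaining 618 were all wholly inside 1 intron of a host. The host model had a coding RefSeq accession (NM) for 613 of them and a non-coding one (NR) for 5, in Pisd-ps2, Kcnk2, Wiz and Ccl25. They were selected on these codes and positions alone, so being intronic, unspliced and on the host's strand is a matter of choice and not a result. The sources used here do not say what the codes stand for, how reads set the ends of a model, or how a model without a splice site was given its strand. RefSeq-derived means a code that contains _R, which is likewise a reading of the codes.

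Introns are the stretches that splicing removes from a pre-mRNA. Mammalian introns are known to hold nested genes, retrocopies of other genes and polyadenylation signals, and the U1 snRNP is known to hold back early polyadenylation within them. Testis is known for the breadth of its transcription, and CAGE and PAS-Seq together bound a transcript by its cap and its poly(A) tail. The 618 models were not sorted into such kinds. In the table, 20 of 21 piRNA pathway genes, 21 of 21 meiotic prophase genes and 17 of 17 spermatid genes were coded NM_R, against 1 of 10 genes of other tissues.

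The intronic models had a lower median length than the other single-exon XX_C models. Their median length was 1186 nt (quartiles 741 and 1817.75, range 57 to 12950), and 250 of the 618 measured 1000 to under 2000 nt (40.5%, exact 95% interval 36.6 to 44.4). The other 8027 single-exon XX_C models had a median of 1557 nt (quartiles 986.5 and 2318.5), and NM_R models a median of 2744.5 nt. Nearer were spliced XX_C models, with a median of 1275 nt (95% interval of the median 1227 to 1321), and single-exon NM_R models, with 1407 nt (1324 to 1556). The rule also bounds length, since an intronic model had to lie between RefSeq-derived exons. Lengths of 5000 nt or more were reached by 11 intronic models (1.78%, 0.892 to 3.16) and by 337 of the other single-exon models (4.20%, 3.77 to 4.66). At the short end, 65 intronic models were under 500 nt (10.5%, 8.21 to 13.2), against 475 of the others (5.92%, 5.41 to 6.46). No test was run on these or any later figures, since models of 1 table are not replicates, and exact intervals cover counting error only. The strand partner of this set was built with the same rule turned to the other strand: 498 single-exon XX_C models inside an NM_R span on the opposite strand, sharing no base with a RefSeq-derived exon of that strand. They are part of the other single-exon models, except for 1 model that met both rules. Their median was 1270 nt (775.25 and 1923.5), close to that of the same-strand models (95% intervals of the medians 1129 to 1274 for the same strand and 1142 to 1380 for the opposite strand).

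**Figure D1:**
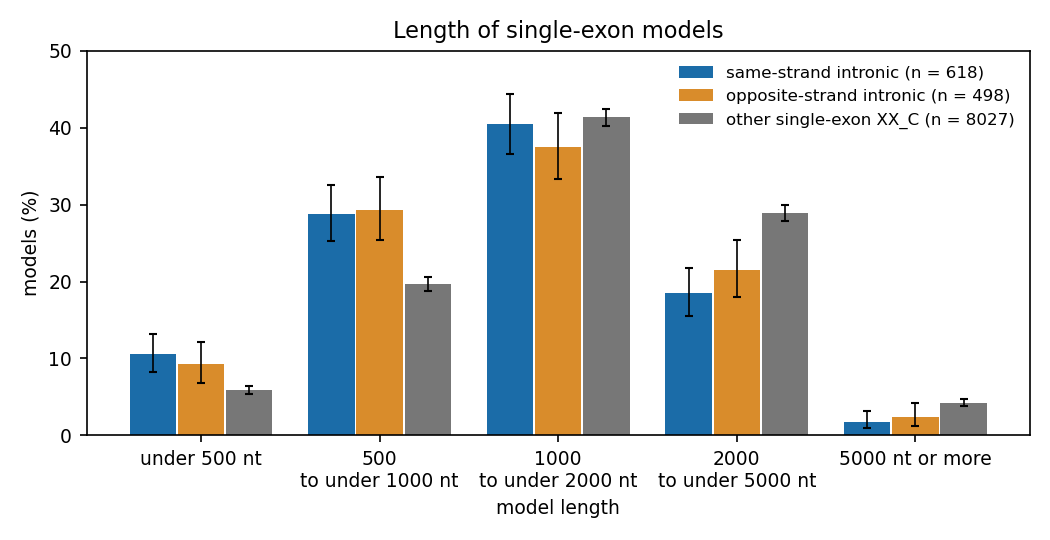
Share of models (%) in 5 classes of length, for same-strand intronic models, opposite-strand intronic models and all other single-exon XX_C models; bars are shares and lines exact 95% intervals. Same-strand models have more of their number below 1000 nt and less at 2000 nt or more than the other single-exon models.

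Among the 10 longest was CUFF.5936.1, of 7790 nt, inside Lin52, a subunit of the MuvB core complex that is known to work with B-MYB. Farp2, a FERM-domain guanine nucleotide exchange factor, held a model of 6786 nt in intron 13 of 26 (CUFF.920.1, chromosome 1, 95477835 to 95484620). Ankrd17, an ankyrin-repeat gene, held 2 more of them, of 6071 and 5857 nt, in its first intron. Maml3, a coactivator of Notch signalling, held one of 6004 nt in intron 2 of 4. The scaffold gene Tanc2 held one of 5870 nt, 744 bp after exon 4. Banp, a nuclear matrix protein gene, held one of 5807 nt that began 14 bp after exon 1. A second Lin52 model, CUFF.5935.1, was 5771 nt long, and one of 5086 nt lay in the first intron of a, the agouti coat colour gene. None of the 10 took more than 34.1% of its intron.

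The 618 models lay in 465 host genes, and these were long genes. Among 13175 NM_R gene symbols, 3.53% held at least 1 such model. The median host span was 80243 bp (quartiles 35327 and 187301), against 23160 bp (9858.75 and 54022.5) for the 12652 NM_R genes with introns. Hosts had a median of 12 exons (quartiles 7 and 19), against 9 (5 and 15) for NM_R genes with introns. The share of genes with a model inside was higher at every step of span. It was 0.437% of genes under 10 kb (14 of 3202, 95% interval 0.239 to 0.733), 3.17% of those of 20 to 50 kb (112 of 3533, 2.62 to 3.80), 8.72% of those of 100 to 200 kb (88 of 1009, 7.05 to 10.6) and 30.1% of those of 500 kb or more (34 of 113, 21.8 to 39.4). Per Mb of intron the order was turned round above 10 kb: 1.69 models per Mb in genes of 10 to 20 kb, 1.36 in genes of 20 to 50 kb and 0.691 in genes of 500 kb or more, against 0.986 over all. Genes of the shortest class, under 10 kb, had 1.18 models per Mb of intron.

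Coding genes whose RefSeq-derived models were all coded XX_R, and so outside the NM_R genes, held fewer. The same rule placed 117 single-exon models in 93 of 5602 such genes with introns (1.66%, 95% interval 1.34 to 2.03), against 465 of 12652 NM_R genes with introns (3.68%, 3.35 to 4.02). The share was lower for XX_R genes in each of the 7 classes of span, for example 3.39% (10 of 295, 1.64 to 6.15) against 8.72% of NM_R genes at 100 to 200 kb. The intervals were apart in that class and overlapped in the other 6. Per Mb of intron, NM_R genes held 0.986 models and XX_R genes 0.463.

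**Figure D2:**
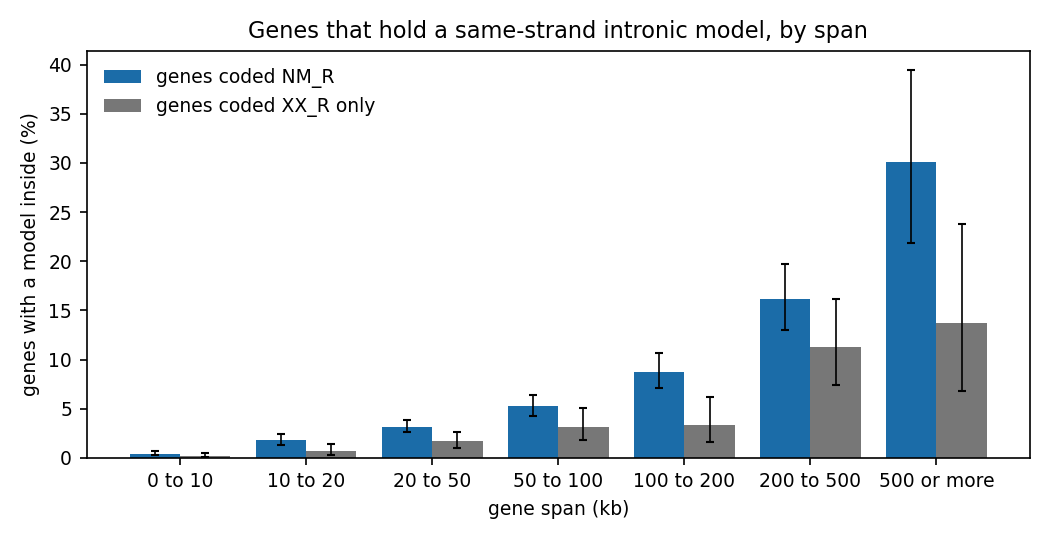
Share of genes with introns (%) that hold a same-strand single-exon XX_C model, by gene span in kb, for genes coded NM_R and for genes with XX_R models only; lines are exact 95% intervals. The share reaches 30.1% of NM_R genes of 500 kb or more and is higher for NM_R than for XX_R genes in every class.

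Over all introns together, more models lay in the 5′ part of the host than in the 3′ part. In later introns more lay in the 3′ part, and in introns under 10 kb neither part clearly held more. A first intron lies before all later introns of its host, so the shares by intron class depend in part on the class itself. The share of intron length was not computed by class, so the classes are compared only between the strands. The midpoint of 376 of the 618 was upstream of the midpoint of the host (60.8%, 95% interval 56.9 to 64.7), against 253 of the 498 opposite-strand models (50.8%, 46.3 to 55.3). Averaged over models, so that a host counts once for each of its models, 52.5% of the host's intron length lay upstream of its midpoint. For opposite-strand models this mean was 51.5%. By intron, it was 227 of 253 same-strand models in first introns (89.7%, 85.3 to 93.2) against 143 of 173 opposite-strand models (82.7%, 76.2 to 88.0). In later introns it was 149 of 365 same-strand models (40.8%, 35.7 to 46.1) against 110 of 325 opposite-strand models (33.8%, 28.7 to 39.3). In introns under 10 kb it was 105 of 215 same-strand models (48.8%, 42.0 to 55.7) against 36 of 108 opposite-strand models (33.3%, 24.6 to 43.1), and in those of 10 to 50 kb 133 of 200 (66.5%, 59.5 to 73.0) against 88 of 175 (50.3%, 42.6 to 57.9). In introns of 50 kb or more it was 138 of 203 same-strand models (68.0%, 61.1 to 74.3) against 129 of 215 opposite-strand models (60.0%, 53.1 to 66.6). The same-strand share was the higher one in each of these 5 classes, with intervals apart for introns of 10 to 50 kb and overlapping in the other 4. The first 10% of the host held 124 same-strand models (20.1%, 17.0 to 23.4) and 56 opposite-strand models (11.2%, 8.61 to 14.4). The last 10% held 37 same-strand models (5.99%, 4.25 to 8.16) and 54 opposite-strand models (10.8%, 8.25 to 13.9). Models of 1 host are not independent, but with each host counted once by its mean position the share upstream of the midpoint was 62.8% of 465 hosts (58.2 to 67.2), against 51.8% of 384 hosts of opposite-strand models (46.7 to 56.9).

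First introns held 253 of the 618 (40.9%, 95% interval 37.0 to 44.9), and 173 of the 498 opposite-strand models (34.7%, 30.6 to 39.1). Averaged over models, the first intron made up 32.8% of the host's intron length for same-strand models and 32.9% for opposite-strand models. Second introns held 94 same-strand models (15.2%, 12.5 to 18.3), and introns 10 or later 89 (14.4%, 11.7 to 17.4). Last introns held 75 same-strand models (12.1%, 9.67 to 14.97) and 41 opposite-strand models (8.23%, 5.97 to 11). The mean share of the last intron in the host's intron length, again over models, was 10.3% for same-strand and 7.54% for opposite-strand models.

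Inside the intron the same-strand models also lay toward the upstream exon. The midpoint was upstream of the intron's midpoint for 368 (59.5%, 95% interval 55.6 to 63.4), against 229 opposite-strand models (46.0%, 41.5 to 50.5). This was so in introns of 50 kb or more, with 135 of 203 same-strand models (66.5%, 59.6 to 73.0) against 105 of 215 opposite-strand models (48.8%, 42.0 to 55.7). In introns under 10 kb it was 116 of 215 same-strand models (54.0%, 47.0 to 60.8) and 52 of 108 opposite-strand models (48.1%, 38.4 to 58.0), with overlapping intervals. Later introns gave 206 of 365 same-strand models (56.4%, 51.2 to 61.6) and 150 of 325 opposite-strand models (46.2%, 40.6 to 51.7), also overlapping, and first introns 162 of 253 (64.0%, 57.8 to 69.9) and 79 of 173 (45.7%, 38.1 to 53.4).

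**Figure D3:**
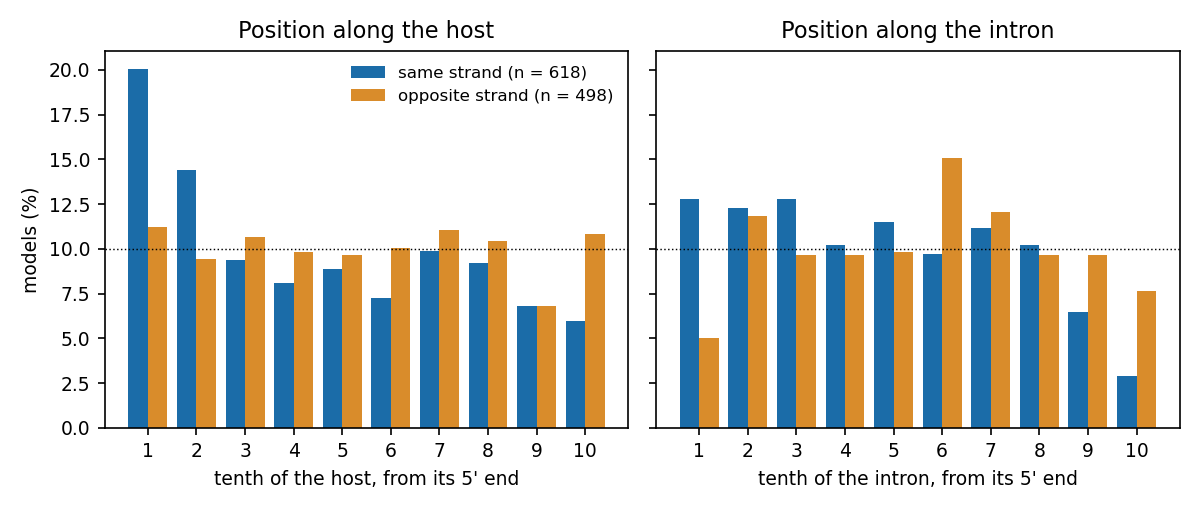
Share of models (%) in each of 10 equal parts of the host (left) and of the intron (right), counted from the 5′ end on the host's strand, for same-strand models and opposite-strand models; the dotted line marks 10%. Same-strand models reach 20.1% in the first part of the host and 2.91% in the last part of the intron.

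The models were seldom flush with an exon. The median distance was 5175 bp from the previous exon to the model (quartiles 1256.75 and 19777.5) and 8844 bp from the model to the next exon (2273.25 and 41864.5). For opposite-strand models, taken along the host, these medians were 15019 and 11953 bp. A previous exon lay within 1000 bp of 131 same-strand models (21.2%, 95% interval 18.0 to 24.6) and 42 opposite-strand models (8.43%, 6.15 to 11.2). A next exon lay within 1000 bp of 98 same-strand models (15.9%, 13.1 to 19.0) and 44 opposite-strand models (8.84%, 6.49 to 11.7). Within 100 bp the numbers were 36 and 26 of the 618 same-strand models, against 3 and 4 of the 498 opposite-strand models. Their introns were shorter, with a median of 21423.5 bp against 38958 bp for opposite-strand models. The part of intron length in these distances was not tested.

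A small group filled nearly the whole intron. At least 90% of the intron was covered by 8 of the 618 models (1.29%, 95% interval 0.560 to 2.53) and 50 to 90% by a further 39. Pan3, the regulatory subunit of the PAN2-PAN3 deadenylase that shortens poly(A) tails, had the fullest. Its CUFF.21096.1 took 625 of the 629 bp of intron 18, the last, on chromosome 5 (148357316 to 148357940, plus strand), 4 bp after one exon and 0 bp before the next. In Cdk17, a PCTAIRE kinase gene, CUFF.2749.1 took 540 of the 544 bp of the last of 16 introns (chromosome 10, 92701791 to 92702330). Gtpbp10 (97.7% of intron 5), Cpn1 (96.7% of intron 3), which encodes a carboxypeptidase, and Tgs1 (96.4% of intron 11), the enzyme that hypermethylates the caps of small nuclear RNAs, followed. Rnf141 (96.3%), Cand2 (95.9%) and the peroxisomal acyl-CoA oxidase gene Acox3 (94.0% of the last of 18 introns) complete the 8. The nucleoporin gene Nup214 (89.9%) and the translocon gene Sec61a2 (88.9%) were next below. In 3 of the 8 the filled intron was the last of its host, and only 1 opposite-strand model covered 90% or more of an intron.

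Several of the models nearest to an exon lay within 8 bp of it on one side and at least 192 bp from the exon on the other. CUFF.9923.1 of Atf7ip2 (479 nt) ended 0 bp before the last exon and began 420 bp after the previous one. In Chmp2a, a subunit of the ESCRT-III membrane remodelling complex, a model of 373 nt ended 2 bp before exon 2 and began 217 bp after exon 1. Ghrl, which encodes the hormone ghrelin, had one of 439 nt that ended 8 bp before exon 4 and began 1501 bp after exon 3. On the upstream side, a model of 1011 nt began 4 bp after exon 5 of Gar1, a protein of H/ACA small nucleolar ribonucleoproteins, and ended 192 bp before the next.

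**Figure D4:**
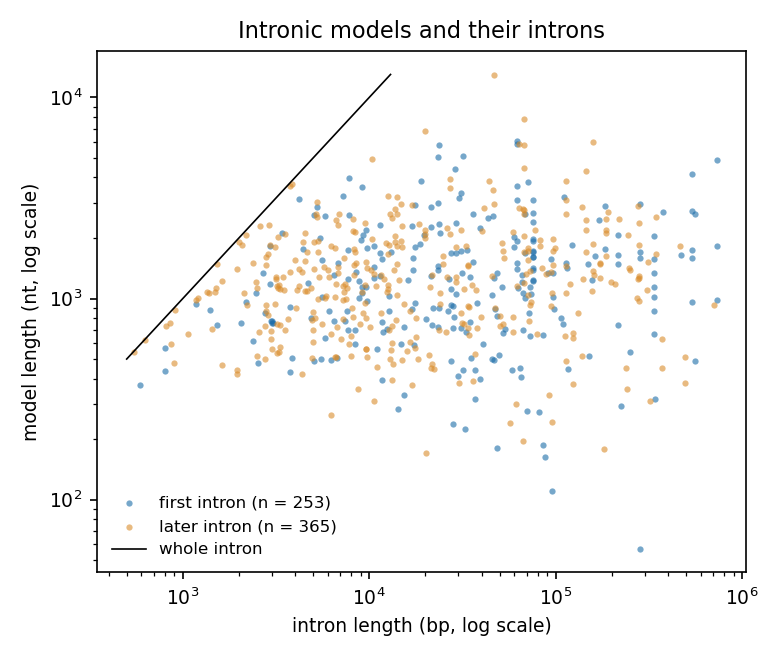
Length of each of the 618 models (nt) against the length of its intron (bp), both on log scales, with first introns and later introns in 2 colours; the black line marks a model as long as its intron. A few points, in introns of 544 to 3855 bp, touch the line, while most lie far below it.

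Most hosts held 1 model, but some introns held a row of them. Of the 465 hosts, 374 held 1, 64 held 2 and 27 held 3 or more. In all, 174 of the 618 shared their intron with another (28.2%, 95% interval 24.6 to 31.9), in 63 of the 507 introns that held any. Opposite-strand models did so in 123 of 498 cases (24.7%, 21.0 to 28.7). The 111 gaps between neighbours of 1 intron had a median of 2318 bp (quartiles 633.5 and 13295), and none was below 105 bp. Gaps under 1000 bp numbered 39 (35.1%, 26.3 to 44.8), and 32 were of 10000 bp or more (28.8%, 20.6 to 38.2).

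Dnajc1, which encodes a J-domain co-chaperone of the endoplasmic reticulum, held the most, 13 models of 1235 to 3085 nt (chromosome 2, 18127960 to 18314457, minus strand). Of these, 12 lay in the first intron, of 75290 bp, within an extent of 44441 bp of which they covered 51.2%. The first of the row began 4517 bp after exon 1, and the gaps ran between 112 and 7096 bp with a median of 1119. The other model, CUFF.14183.1, lay alone in intron 8. Rows as dense stood in a few other introns of named genes: 3 models covered 96.1% of an extent of 5698 bp in intron 7 of Taf15, an RNA-binding protein of the FET family, with gaps of 105 and 115 bp. In intron 21 of Ptprm, a receptor-type tyrosine phosphatase, 3 models of 2081, 3540 and 3933 nt covered 95.04% of 10053 bp. Farp2 had 3 over 92.04% of 11932 bp of intron 13, where the 2 gaps were 442 and 508 bp. These 3 examples of dense rows were chosen after their values were seen.

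Lin52 had 7 models, all in its last intron of 67237 bp (chromosome 12, host 85792458 to 85872483, plus strand). They covered 23896 nt, 35.5% of the intron. The row began 1148 bp after exon 5 with CUFF.5935.1 (5771 nt), CUFF.5936.1 (7790 nt) followed after a gap of 200 bp, and the other 5, of 1189 to 2754 nt, were spread to within 5025 bp of the last exon. Ankrd17 also had 7, all in its first intron of 61601 bp (chromosome 5, host 90656191 to 90795211, minus strand), over 38.1% of it. The 2 longest of these, 6071 and 5857 nt, were the 2 nearest exon 1 and lay 153 bp apart.

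Gm13152 held 7 models in a first intron of 334848 bp, covering 2.58% of it, with gaps of 107 to 141869 bp. Nfat5, the transcription factor of the osmotic stress response, had 3 models in intron 2 and 3 in intron 3, of 1214 to 3212 nt. Those of intron 3 covered 54.6% of its 14044 bp, and those of intron 2 covered 14.8% of its 29004 bp. Lyrm4, needed for iron-sulphur cluster assembly in mitochondria, had 5 of 1068 to 3826 nt in its second and last intron. In Lyrm4, CUFF.6699.1 (3826 nt) and CUFF.6701.1 (2628 nt) stood 795 bp apart near the previous exon, and CUFF.6686.1 (3084 nt) lay 32927 bp after it. Macrod2, an ADP-ribose hydrolase gene spanning 1994621 bp, had 5 short models of 380 to 1213 nt, spread over introns 3, 4 and 5. Tmtc3, an O-mannosyltransferase gene, had 3 models over 63.3% of its first intron and 1 in intron 10. Ptprm had 4, and the heparanase relative Hpse2 had 4 of 977 to 2368 nt in intron 3.

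**Figure D5:**
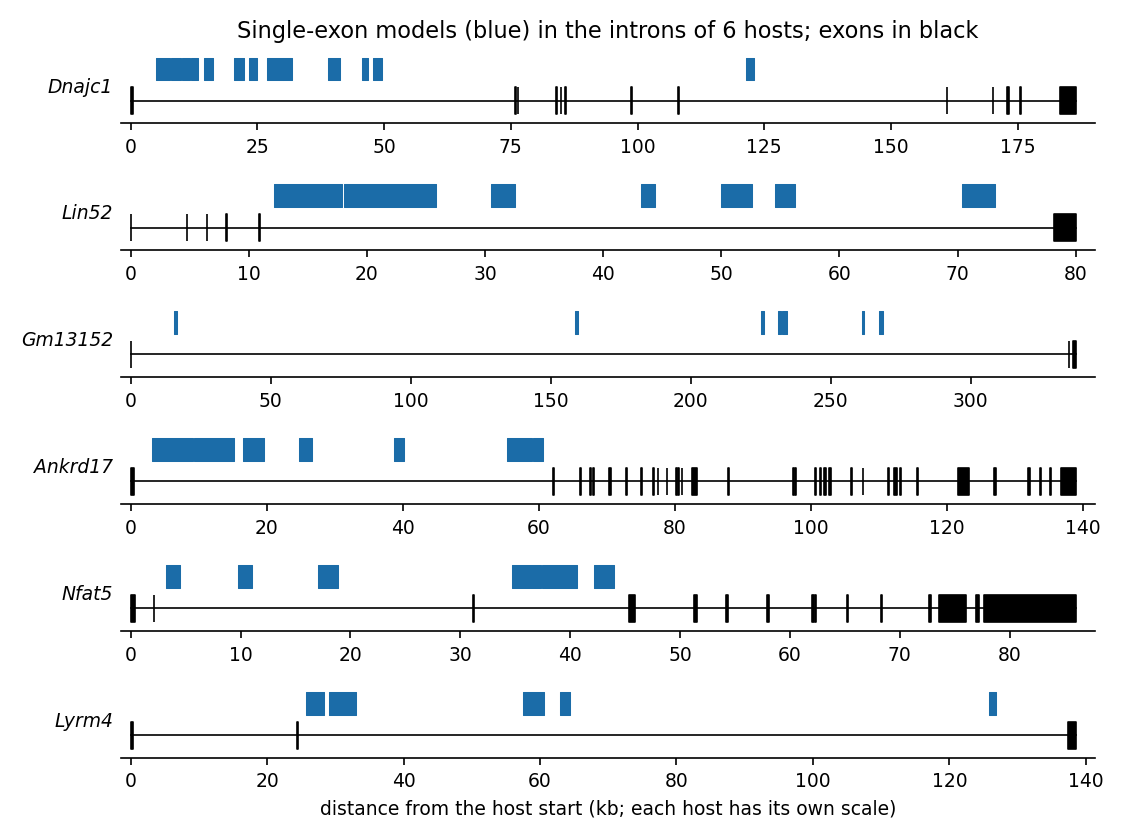
The 6 hosts with the most models, drawn to scale from the host start (kb, with a separate scale for each host); black blocks are exons of the host model and blue blocks the single-exon models. In the first intron lie 12 of the 13 models of Dnajc1 and all 7 of Ankrd17; the row of Lin52 lies in the last intron, and those of Gm13152 and Lyrm4 are sparse.

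Few of the 618 overlapped other transcripts, and the rule itself excluded overlap with same-strand RefSeq-derived exons. None of the 618 shared a base with an exon of a same-strand CUFF model that carries a gene symbol, which allows a share of up to 0.485%, and none with a piRNA-named model on either strand, with the same limit. For such CUFF exons the opposite-strand models, not screened on their own strand, also gave 0 of 498 there. With piRNA-named models, 3 of the 498 shared bases on their own strand (0.602%, 95% interval 0.124 to 1.75). The code XX_C was read as marking models without a gene symbol, so the 0 for CUFF exons may be set by the coding. It is not read as a result. On the same strand, 4 of the 618 overlapped a spliced XX_C model (0.647%, 95% interval 0.177 to 1.65), in Cldn14, Pisd-ps2, Gm13152 and Ccl25. Of the opposite-strand models, 23 of 498 overlapped an XX_C model on their own strand (4.62%, 2.95 to 6.85). For opposite-strand models, 10 of 498 overlapped an exon on the host's strand (2.01%, 0.967 to 3.66), where their rule barred RefSeq-derived exons. On the strand opposite to the host, 9 of the 618 overlapped an exon (1.46%, 95% interval 0.668 to 2.75), 8 of them of XX_C models. The exception was in Mcph1, the microcephalin gene, whose CUFF.24994.1 shared 872 bp with an exon of Angpt2, the angiopoietin gene that runs the other way inside Mcph1. In Hrh1, a histamine receptor gene, 2 models overlapped the 2 ends of 1 opposite-strand model by 363 and 123 bp. In Farp2, an opposite-strand model of 1 exon lay wholly within the 6786 nt of CUFF.920.1.

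Hosts often had assembled isoforms of their own, and a few models stood next to the ends of these. A CUFF model coded NM_N of the same symbol existed for 253 of 465 hosts (54.4%, 95% interval 49.8 to 59.0), against 5011 of 12652 NM_R genes with introns (39.6%, 38.8 to 40.5). For genes of 100 kb or more, the shares were 117 of 200 hosts (58.5%, 51.3 to 65.4) and 911 of 1605 NM_R genes (56.8%, 54.3 to 59.2), and for genes below 20 kb 29 of 59 hosts (49.2%, 35.9 to 62.5) and 1681 of 5717 (29.4%, 28.2 to 30.6). At 20 to 50 kb they were 47.3% (37.8 to 57.0) of hosts and 42.1% (40.4 to 43.7) of NM_R genes. At 50 to 100 kb they were 57.4% (46.8 to 67.6) and 51.9% (49.6 to 54.3). The intervals were apart only below 20 kb. An assembled isoform of the host ended within 1000 bp upstream of 18 models (2.91%, 1.74 to 4.56). The closest were in Taf15 (112 bp), Sos1 (121 bp), a Ras exchange factor gene, 3300002I08Rik (153 bp) and Zfp160 (154 bp). An assembled isoform of the host started within 1000 bp downstream of 14 models (2.27%, 1.24 to 3.77), closest in Galc (168 bp), the galactocerebrosidase gene, Aox4 (213 bp) and Gtpbp10 (215 bp). These genes were named for the smallest distances after the values were seen.

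A few genes of the testis and RNA-processing lists were hosts, and the intervals of all these lists included the 3.53% of all NM_R genes. Of the piRNA pathway, 1 of 20 NM_R genes was a host, Rnf17, a Tudor-domain gene of the germline, with CUFF.8099.1 of 944 nt in intron 2. Of the meiotic prophase genes, 1 of 21 was a host, the recombinase gene Dmc1, whose CUFF.9317.1 of 1060 nt began 91 bp after exon 1 and covered 42.8% of the intron. No spermatid (0 of 17), spermatogonial (0 of 10), Sertoli (0 of 11), Leydig (0 of 8), or peritubular, vascular and immune gene (0 of 8) was a host, which allows shares of up to 17.6% for the 17 spermatid genes and up to 37.5% for lists of 8. Lists of this size could not show a share below 3.53%. Median spans were 6.53 kb for the spermatid, 8.27 kb for the Leydig and 9.27 kb for the Sertoli genes. Of NM_R genes with introns under 10 kb in span, 0.437% were hosts. The spermatogonial genes had a median span of 17.2 kb and the peritubular, vascular and immune genes one of 52.0 kb. At 10 to 20 kb 1.79% were hosts, and at 50 to 100 kb 5.23%. Among genes of 3′ end processing and U1 snRNP, 1 of 26 was a host, Scaf8, which binds the tail of RNA polymerase II (309 nt in intron 3). Of those of nuclear RNA decay and elongation, 1 of 29 was a host, Zfc3h1, which links nuclear polyadenylated RNA to the exosome, with a model of 664 nt over 62.1% of intron 30.

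Chromatin regulators gave 4 hosts of 40 (10%, 95% interval 2.79 to 23.7), an interval that includes the 3.53% of all NM_R genes. Their median span was 80.8 kb, and 5.23% of NM_R genes of 50 to 100 kb were hosts. Among them were the remodeller gene Chd2 (1277 nt, 47 bp after an exon) and the methyltransferase-family genes Mll3 (996 nt in intron 27) and Mll5 (723 nt in intron 1 and 1205 nt in intron 16). Of 13 imprinted genes and genes with imprinted genes in their introns, 1 was a host (7.69%, 0.195 to 36.0), Herc3, with 896 nt in intron 15. Their median span was 85.1 kb, and the interval includes both the 3.53% of all NM_R genes and the 5.23% of those of 50 to 100 kb. The list of very long genes gave 9 hosts of 26 (34.6%, 17.2 to 55.7), where 30.1% of all NM_R genes of 500 kb or more were hosts. Dmd, the dystrophin gene, had 1379 nt in an intron of 249539 bp, and Auts2 had 4 models, 3 of them in its first intron. The others were Macrod2, Ptprd, Magi1, Ctnna2, Ctnna3, Pcdh9 and Fbxl17. Fbxl17, an F-box gene, held 3 models of 1712 to 2454 nt in intron 7, of which 2 were 197 bp apart.

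By symbol family, zinc finger genes named Zfp gave 19 hosts of 272 (6.99%, 95% interval 4.26 to 10.7), where 3.53% of all NM_R genes were hosts and the median span of a Zfp gene was 15.7 kb. Zfp871 had 3 models in its first intron of 10610 bp and Zfp326 had 3 in 3 introns. Solute carrier genes (Slc) gave 2 of 204 (0.980%, 0.119 to 3.50), the mitochondrial carriers Slc25a36 and Slc25a40, at a median span of 24.7 kb. Receptor phosphatases (Ptpr) gave 2 of 13 (15.4%, 1.92 to 45.4), with a median span of 148 kb. That interval includes the 3.53% of all NM_R genes and the 8.72% of NM_R genes of 100 to 200 kb. None of 48 Usp symbols (median span 50.2 kb) or 48 proteasome symbols (11.3 kb) was a host, which allows a share of up to 6.25% for each and so includes 3.53%. The 28 families were listed by prefix and none was tested against the others.

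Chromosomes differed in how many models they held per Mb of intron in NM_R genes. Chromosome 17 had 1.43 per Mb (35 models), chromosome 5 had 1.41 (56) and chromosome 12 had 1.38 (34). At the low end, chromosome 18 had 0.460 (12 models), X 0.471 (12) and chromosome 9 0.530 (19). The X chromosome held 1.94% of the 618 models (95% interval 1.007 to 3.37), against 2.14% of the other single-exon XX_C models (172 of 8027, 1.84 to 2.48) and 4.02% of NM_R genes (529 of 13175, 3.69 to 4.36). Of 529 X-linked NM_R genes, 10 were hosts (1.89%, 0.910 to 3.45). Y held none, with a limit of 0.485%. Only 10 of the 13175 NM_R genes and 0.526 Mb of their introns lay on Y, so that 0 says little.

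Beside the limits of the rule, 3 models were left out because their start faced a coding gene: that in Zmynd15 lay 119 bp from the start of Cxcl16, that in Wdr25 181 bp from Wars, and that in Mbd5 298 bp from Orc4. The nearest retained models lay 531 bp (2310022A10Rik), 630 bp (BC030307) and 966 bp (Thap2) from such a start. The hosts of the 2 strands overlapped in part: 61 genes held both kinds, 13.1% of the 465 hosts and 15.9% of the 384 hosts of opposite-strand models.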

How the data were processed

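The deposited table holds 12 columns with 1 transcript model per line: position in base pairs, name, strand, code, exon number, exon lengths and exon offsets. It has no read count, expression value or column of a single library. The genome build was mm9 and the one tool named was TopHat2 2.0.4, per the submitters' processing notes. The sources used here do not give the assembly, its filters or the way reads set ends. Positions are printed counted from 1, in mm9.

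Models were selected by the stated rule with Python 3.11.15 (NumPy 2.4.6, SciPy 1.17.1), and the selection was tested on simulated models. The host was the NM_R model of longest span, and introns were numbered from its start. Host genes are symbols, of which 461 of 465 matched the GRCm38.p6 gene tables, used for names only. Shares have exact Clopper-Pearson 95% intervals, and medians have order-statistic intervals. A count of 0 is given with the limit that 3 counts of the total set. With 1 library per group no test between groups was possible and none was run over features.

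The members, the 13 gene lists and the 28 symbol families were chosen with earlier results of these data known. Named models follow a rule: the 10 longest, the 10 hosts with the most models, every model inside a listed gene, the 10 with the largest share of an intron, the 5 nearest to an exon on each side, the 5 introns with the most models and the 3 on each side of the head-to-head limit. Genes named for overlaps with other models, for nearby isoforms and within symbol families are outside this rule and were chosen after their values were seen. Some genes that this rule or the lists name are not reported here. Sequences of the models were not analysed here. The alternatives were a single-intron rule, NR_R hosts, head-to-head limits of 0 and 1000 bp, merging, exons of all named models, a minimum of 500 nt, placed chromosomes only, and the shortest host model.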

Additional observations from a re-analysis of the deposited data

How the results depend on the processing

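The 11 results on number, length, hosts, position, overlap, X share and shared introns were recomputed under 9 alternatives. In 4 of these (a single intron, merging, exons of all named models, placed chromosomes) no value differed, since they left the same models, so they test nothing. The other 5, together with 2 values in which each host was counted once, added after seeing the data, gave 57 values. Of these, 56 stayed within the 95% interval of the reported value or, for counts, within 1.5 times of it. The only exception among them was the median length, which was 1301 nt when models under 500 nt were left out, a shift that follows from removing the shortest. No paired analysis was possible because each group held 1 library and the table has no value per library. Depth is unknown, so the absence of a model from an intron does not show that no transcript is there, and models within 1 host or intron are not independent. Strand was taken as the table gives it.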
